A study of Mus musculus with 1187 samples.

Results

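Mfsd2a, 1 of the 46517 genes of the count table, was followed through 1187 single endothelial cells of the mouse brain. It was selected by name with earlier values of these cells known, so its level by plate and its relation to other transcripts are given as descriptions. Mfsd2a encodes a membrane transporter of lysophosphatidylcholine, the form in which the brain takes up docosahexaenoic acid across its capillary wall. In brain endothelium it is also known for keeping caveolar vesicles few, and so for holding down passage of proteins through the cell. Earlier work linked sparse pericyte cover to a low level of the gene.

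The cells came from brains of 3-month-old C57BL/6 mice that carried a GFP reporter under Cldn5 and a DsRed reporter under Cspg4. GFP-positive, DsRed-negative cells were sorted into wells, so that both genotypes went through a gate that selects on an endothelial junction gene and against pericytes. The labels name 590 cells of Pdgfb ret/+ mice, the controls, and 597 cells of Pdgfb ret/ret mice, in which PDGF-B lacks its retention motif and pericytes are few. No label names an animal, and the columns carry a plate and a well but no cell number, so no cell could be given a genotype. Plates 521, 522, 523 and 524 held 300, 290, 285 and 312 cells and are shown side by side. Plate, genotype and animal cannot be told apart. Cells had between 100779 and 584112 gene-assigned reads, with a median of 360947.

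The gene, ENSMUSG00000028655.11, lies on the minus strand of mouse chromosome 4 from 122946850 to 122961188 (GRCm38, GENCODE M21). No other annotated gene overlaps it. The noncoding gene 4933421A08Rik starts 121 bases away on the opposite strand, inside the 250 bases before the Mfsd2a start. These bases are shown because Wnt/beta-catenin targets are among the genes described below. They are RefSeq's sequence on GRCm38.p6, chr4:122961189-122961438, minus strand, written 5′ to 3′ with the matches to 2 searched motifs in capitals.
Mfsd2a promoter: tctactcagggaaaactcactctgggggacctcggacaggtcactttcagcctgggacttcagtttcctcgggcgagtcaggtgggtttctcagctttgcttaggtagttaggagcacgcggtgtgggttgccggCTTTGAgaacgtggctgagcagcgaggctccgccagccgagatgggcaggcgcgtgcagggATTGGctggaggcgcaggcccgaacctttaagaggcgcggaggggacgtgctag
The first match, 115 to 110 bases before the start, is CTTTGA, the core read by TCF/LEF factors of the Wnt pathway. Searched on both strands, it was present in 13.8% of 32851 promoters of the same length. The second, 54 to 50 bases before the start, is the CCAAT box read on the opposite strand, present in 33.8% of promoters. The 2 motifs do not overlap. G and C made up 61.6% of these bases, against a median of 52.4% over all promoters. A match is a description of letters and not a binding site.

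Mfsd2a was lowest on plate 521 and highest on plates 523 and 524. Summed over cells, it stood at 198 CPM (its share of a plate's gene reads, scaled to a fixed total) on plate 521 (95% counting interval 195 to 200.4). It stood at 533 CPM on plate 522 (529 to 538), 853 CPM on plate 523 (848 to 859) and 851 CPM on plate 524 (846 to 857). Plates 523 and 524 differed by less than the counting error, and plate 522 lay between them and plate 521. The highest plate was 4.32 times the lowest. The divergent neighbour 4933421A08Rik was rare, with 0.34, 1.37, 2.47 and 3.26 CPM on plates 521 to 524, and had a read at fixed depth in 1.33%, 5.86%, 9.47% and 12.8% of cells. It too was lowest on plate 521, followed by plate 522.

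Plates differed both in how many cells held the transcript and in how much of it those cells held. With every cell thinned to 100000 reads, 35.0% of cells on plate 521 had a Mfsd2a read (29.6% to 40.7%). The share was 56.9% on plate 522 (51.0% to 62.7%), 78.2% on plate 523 (73.0% to 82.9%) and 82.7% on plate 524 (78.0% to 86.7%). Without thinning the shares were 41.7%, 69.0%, 88.1% and 90.4%. With at least 5 reads at the fixed depth required, they were 30.0%, 49.0%, 69.8% and 75.6%. The intervals of plates 523 and 524 overlapped, and those of plates 521 and 522 did not overlap each other or those of the other plates.

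Cell to cell, Mfsd2a ran from no read to over 2000 CPM on each plate. The median cell stood at 0 CPM on plate 521, 30.4 on plate 522, 705 on plate 523 and 705 on plate 524. The highest cell stood at 2624, 3453, 3568 and 3457 CPM on plates 521 to 524. Cells at 500 CPM or more made up 16.0%, 34.5%, 58.2% and 58.0% of the plates. Cells with no read at full depth numbered 175, 90, 34 and 30, and cells with 1 to 4 reads 32, 53, 51 and 42. Among cells with at least 5 reads at fixed depth, the median level also differed, at 554, 807, 1085 and 1022 CPM. The tenth of cells with the most Mfsd2a held 64.9% of its reads on plate 521, 45.8% on plate 522, 31.2% on plate 523 and 29.1% on plate 524. The reads were spread over more cells on the plates where the level was high. Total reads of a cell varied little with it, with Spearman correlations of 0.02, -0.00, 0.14 and 0.04 on plates 521 to 524.

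**Figure D1:**
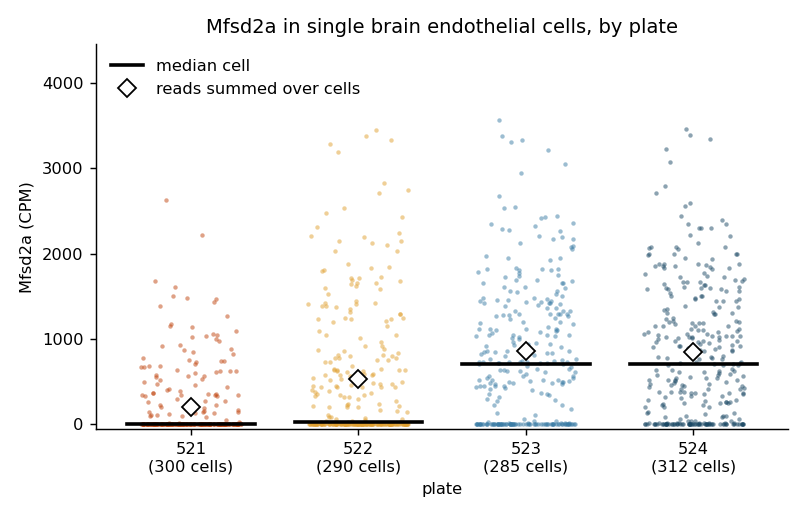
Mfsd2a in each cell (points, CPM of the cell) by plate, with the median cell (line) and the level from reads summed over cells (diamond). The median is at 0 CPM on plate 521 and at 705 CPM on plates 523 and 524, and each plate holds cells with no read.

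Few genes varied between plates as Mfsd2a did. Of 9059 genes at 20 CPM or more on any plate, 239 (2.64%) had a highest plate at least 4 times the lowest, with 1 CPM added to both sides. Mfsd2a was among them by this measure, at 4.30-fold, where the median gene was at 1.46-fold. Of the 20 listed barrier transporters, which carry nutrients and export drugs at the blood-brain barrier, 0 passed 4-fold. Their median was 1.36-fold, and the ApoE and reelin receptor Lrp8 had their highest value, 2.95-fold. The glucose transporter Slc2a1 stood at 3135, 3623, 3433 and 3551 CPM, a range of 1.16-fold. Among lipid genes, 13 of 22 reached 20 CPM, and 0 of these passed 4-fold. Their median was 1.53-fold and their highest the fatty acid transport protein Slc27a3, at 2.88-fold with 6.81, 14.1, 16.6 and 21.5 CPM. The acyl-CoA ligase Acsl3, which activates long-chain fatty acids, had 59.3, 62.7, 94.4 and 106 CPM. Of these 13 genes, 4 were lowest on plate 521, as were 2280 of all 9059 genes. Of the 20 barrier transporters 13 were lowest there, and of the 10 capillary markers described below 8. Of the 13 lipid genes, Slc27a4, Acsl4, Lpcat1 and the sphingosine-1-phosphate exporter Spns2 were highest there, Spns2 with 169, 140.1, 62.1 and 87.2 CPM.

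Transcripts of other cells also differed between plates. The sum of the 8 pericyte markers was 23.1, 25.5, 137 and 81.7 CPM, each of them read above 1 CPM on some plate. In cells without a read of any of them, Mfsd2a stood at 156, 537, 849 and 817 CPM, and in cells with one at 329, 518, 859 and 902. Of all cells, 20 held at least 3 markers of another cell type at 100 CPM or more. Endothelial markers, Cldn5 and Pecam1 among them, summed to 11380.5, 12258, 13303 and 13249 CPM.

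Set per length of exon, which allows comparison between genes, Mfsd2a ranked among the more abundant transporters of these cells on 3 plates and low on the fourth. Over its 2250 bases of exon it had a length-scaled level (CPM per kilobase of exon) of 87.9, 237, 379 and 378 on plates 521 to 524. Among the 20 barrier transporters and Mfsd2a, it ranked 15, 6, 4 and 3. Slc2a1 was first on each plate, at 894, 1033, 979 and 1013 CPM per kilobase, and the organic anion transporter Slco1a4 second. Mfsd2b, the sphingosine-1-phosphate exporter of blood cells and nearest relative of Mfsd2a, had 0.91, 1.59, 0.97 and 1.05 CPM per kilobase.

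Angpt2, the TIE2 ligand released by activated and sprouting endothelium, ran against Mfsd2a between plates but not between cells. Angpt2 stood at 508, 299, 48.4 and 29.9 CPM on plates 521 to 524, the reverse order of Mfsd2a except that plates 523 and 524 tied in Mfsd2a. Over the cells of a plate, the correlation between both genes was 0.11, 0.11, 0.03 and -0.01. On plate 521, cells with an Angpt2 read at fixed depth had 224 CPM of Mfsd2a and cells without one 163. The pairs were 525 and 540.0 CPM on plate 522, 941 and 839 on plate 523, and 740.2 and 866 on plate 524. Cells with Angpt2 were higher in Mfsd2a on plates 521 and 523 and lower on plates 522 and 524. With at least 5 Angpt2 reads required, plate 524 turned, at 889 CPM with and 849 without, and plate 522 had 529 and 536.

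Many cells held both transcripts. At 5 reads or more of each at fixed depth, 16.7%, 18.6%, 6.32% and 4.81% of the cells of plates 521 to 524 were positive for Mfsd2a and Angpt2. The product of the single shares, which independence of the genes would give, was 14.0%, 16.9%, 5.88% and 4.85%. On plate 521, 50 of the 140 Angpt2-positive cells also held Mfsd2a.

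Mfsd2a was lower in cells with more Cav1, the coat protein of caveolae. Cav1 stood at 631, 718, 299 and 429 CPM on plates 521 to 524. Its correlation with Mfsd2a was -0.03, -0.21, -0.13 and -0.16. Each plate was divided into 5 equal bins of cells by their Cav1 level, and Mfsd2a went from 288 CPM in the lowest bin to 189.7 CPM in the highest on plate 521. It went from 765 to 213 CPM on plate 522, from 979 to 629 on plate 523 and from 974 to 678 on plate 524. On plate 521 the lowest bin alone stood apart, the others lying between 134 and 209 CPM. The log2 ratio of highest to lowest bin averaged -0.90 ± 0.63 (SD over 4 plates). Cells without a Cav1 read had more Mfsd2a than cells with one on each plate, with 294 against 173, 746 against 486, 928 against 769 and 1043 against 729.8 CPM. At 5 reads of each, 64 of 90, 108 of 142, 77 of 199 and 126 of 236 Mfsd2a cells held Cav1. Cells with both made up 21.3%, 37.2%, 27.0% and 40.4% of plates 521 to 524. The product of the single shares was close to this, at 21.8%, 39.0%, 29.2% and 41.7%.

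The other caveola genes followed in part. Of 9 listed genes, 8 were read in enough cells to be compared. The correlation was below 0 on every plate for 3 of them, Ehd2 (-0.07, -0.16, -0.20 and -0.03), Cav1 and Prkcdbp (-0.02, -0.09, -0.10 and -0.14), the last encoding cavin 3. None was above 0 on every plate. Over all 6947 genes compared, 9.28% had correlations below 0 on every plate and 11.6% had correlations above 0 on every plate. Cav2 had values of both signs (-0.01, 0.10, -0.07 and -0.00).

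Mfsd2a was higher in cells with more Slc16a1, the lactate and ketone body carrier of brain capillaries, on plates 521, 522 and 523, and little so on plate 524. Slc16a1 stood at 404, 385, 669.8 and 446 CPM. Its correlation with Mfsd2a was 0.23, 0.30, 0.16 and 0.02. From the lowest to the highest bin of Slc16a1, Mfsd2a went from 72.4 to 325 CPM on plate 521 and from 445 to 937 on plate 522. It went from 637 to 917 CPM on plate 523 and from 816 to 936 on plate 524. Plate 524 had the smallest difference, with a log2 ratio of 0.20 where plate 521 had 2.15.

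Mfsd2a was highest in cells rich in capillary transcripts. The cells of each plate were divided into 5 equal bins by the summed CPM of a marker list, so that a bin is a range of a score and not a cell type. The 10 capillary markers, among them the transferrin receptor Tfrc and the carbonic anhydrase Car4, summed to a value with correlations of 0.42, 0.57, 0.42 and 0.32 to Mfsd2a. From the lowest to the highest bin, Mfsd2a went from 19.6 to 561 CPM on plate 521, from 91.7 to 1178 on plate 522, from 276 to 1305 on plate 523 and from 351 to 1023 on plate 524. On plate 524 bin 4 of 5 was the highest, at 1182 CPM. The log2 ratio averaged 3.05 ± 1.45 (SD over 4 plates). It fell from plate 521 (4.77) to 522 (3.67), 523 (2.24) and 524 (1.54). Counted by the number of capillary markers read in place of their sum, the mean was 1.58. Without Slc16a1, which is on this list, it was 3.02.

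Venous transcripts went the other way. The list holds Vwf, a clotting protein of larger vessels, and the venous transcription factor Nr2f2. The correlation of its sum with Mfsd2a was -0.10, -0.37, -0.16 and -0.21. Mfsd2a went from 217 CPM in the lowest bin to 79.6 in the highest on plate 521, and from 1001 to 137 on plate 522. It went from 997 to 527 CPM on plate 523 and from 1043 to 544 on plate 524. On plate 521 only the highest bin stood low, the other bins lying between 214 and 252 CPM. The log2 ratio averaged -1.54 ± 0.91 (SD over 4 plates).

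Arterial and angiogenic transcripts had no ordered relation to it. Mfsd2a was lower in the highest than in the lowest arterial bin on each plate, with a mean log2 ratio of -0.48 ± 0.20 (SD over 4 plates). Bin 4 of 5, however, was the highest of the plate on plates 521 (289 CPM) and 523 (1136 CPM). With 3 bins in place of 5 the mean was -0.00. The correlation of the arterial sum, which includes the elastic fibre gene Eln and the ephrin Efnb2, was -0.04, -0.12, -0.03 and -0.06. For angiogenic transcripts, such as the tip cell peptide Apln, the log2 ratio was 0.58 and 0.18 on plates 521 and 522 and -0.35 and -0.37 on plates 523 and 524. Without Angpt2, which is on this list, it was 0.78, -0.50, -0.52 and -0.29. Their sum was 1394, 869, 191 and 157 CPM on plates 521 to 524, and their correlation with Mfsd2a was 0.08, 0.04, -0.02 and -0.05.

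**Figure D2:**
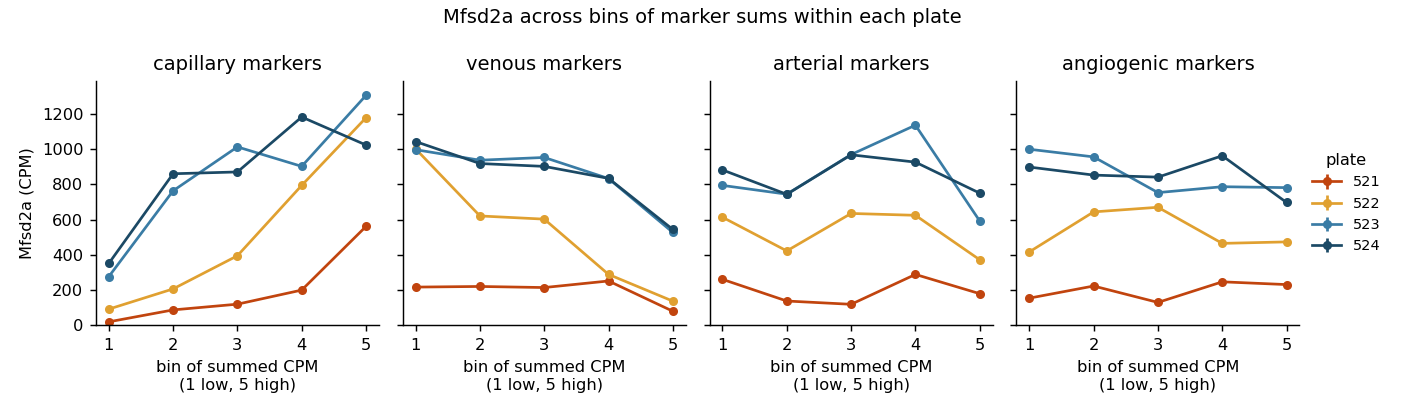
Mfsd2a (CPM of summed reads) in 5 bins of the summed CPM of capillary, venous, arterial and angiogenic markers, within each plate (lines). Intervals of counting error are smaller than most points. On each plate Mfsd2a is higher in the highest than in the lowest capillary bin, and lower in the highest than in the lowest venous bin.

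Cells at like capillary marker sums still differed between plates. The plates also differed in the capillary sum itself, which was 6126, 7385, 10253 and 9955 CPM. When bins were formed over all cells, an alternative added after seeing the data, plate 521 was lowest in 5 of 5 bins. In bin 3 Mfsd2a stood at 262, 654, 768 and 869.7 CPM on plates 521 to 524, from 55, 55, 58 and 70 cells. The median capillary sums within this bin were 7862, 8433, 8420 and 8324 CPM, lowest on plate 521. In bin 5 Mfsd2a stood at 537, 1402, 1144 and 1107 CPM, from 18, 40, 93 and 86 cells. There the median sums were 14281, 13723, 14898 and 14615 CPM, lowest on plate 522. Plate 522 was second lowest in bins 2, 3 and 4 and highest in bin 5, so its position depended on the range.

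**Figure D3:**
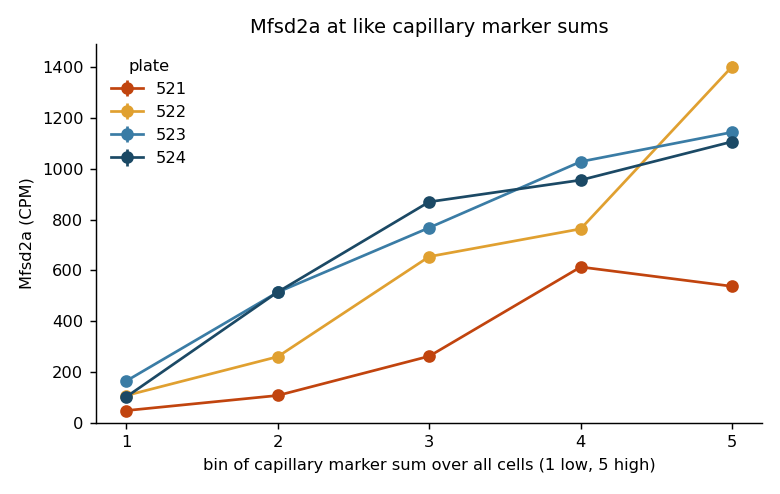
Mfsd2a (CPM of summed reads) of each plate (lines) in 5 bins of the capillary marker sum formed over all cells. Intervals of counting error are about the size of the points. Plate 521 is lowest in 5 of 5 bins.

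Mfsd2a also differed between clusters of cells that had been formed without it, with a wide spread over plates. Of 9 clusters, 3 could be named from markers. The arterial-like cells (cluster 8, 108 cells, led by Fbln5, Mgp and Eln) had 315 CPM, with 72.8, 498, 123 and 484 on plates 521 to 524. The venous-like cells (cluster 6, 86 cells, with the interleukin receptor Il1r1 among its leading genes) had 383 CPM, with 59.6, 433, 435 and 545. The angiogenic-like cells (cluster 4, 60 cells, led by Chst1, Mcam and Fscn1) had 579 CPM, with 408 and 632 on plates 521 and 522, where alone they numbered at least 10.

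Unnamed clusters lay on both sides of these. With all plates together, cluster 2 (206 cells, led by Cyp4b1 and Slc22a14) had the lowest level, 249 CPM. This level mixes plates, and 104 and 84 of its cells were on plates 521 and 522. On plate 521 it stood at 122 CPM, above the venous-like (59.6) and arterial-like cells (72.8) and cluster 5 (81.1). On plate 523 it stood at 840 CPM, from 11 cells, again above these clusters. The angiogenic-like cells were the highest on plate 521, at 408 CPM. With all plates together, clusters 5, 0, 7, 1 and 3 had 497, 715, 804, 822 and 890.2 CPM. The pericyte gene Rgs5 was among the 10 leading genes of cluster 3, and its part in that level was not tested. The plate ranges of all 9 clusters overlapped, so their order is a description of these cells. Plate 521 was the lowest plate in 9 of 9 clusters. Clusters 2 and 0 lay below the arterial-like cells on plate 522, at 309 and 448 CPM, as did the venous-like cells, at 433 CPM. The arterial-like level was 136 CPM at resolution 2 and 198 CPM with 1000 variable genes.

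**Figure D4:**
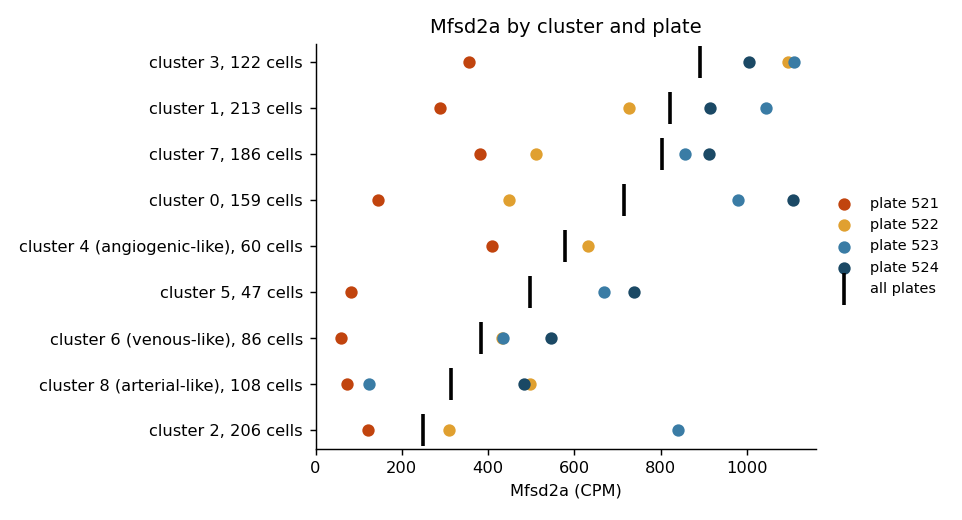
Mfsd2a (CPM of summed reads) by cluster, for each plate with at least 10 cells of the cluster (points) and all plates together (bar). Clusters were formed without Mfsd2a. Plate 521 is the lowest point in 9 of 9 clusters.

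Genes were then ranked by how closely they followed Mfsd2a from cell to cell. Of 6947 genes read in at least 20% of the cells of every plate, 8 (0.115%) had correlations of 0.2 or more on every plate, and 0 (0%) had correlations of -0.2 or less. Fewer plates make the condition looser: without plate 521 there were 13 positive genes, and without plate 524 there were 17 positive and 2 negative genes. On each plate the 5th to 95th percentiles of all genes lay within -0.12 and 0.13. The points of a plate share their plate and their marker makeup, and no p-value is given.

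Of these 8 genes, 4 were on the capillary list. Spock2, a secreted matrix proteoglycan, had correlations of 0.39, 0.51, 0.44 and 0.29 on plates 521 to 524. The large neutral amino acid transporter Slc7a5 had 0.31, 0.35, 0.28 and 0.32. The thyroid hormone transporter Slco1c1 had 0.25, 0.31, 0.35 and 0.30, and the organic anion transporter Slc22a8 0.26, 0.38, 0.35 and 0.22. All of them but Spock2 were also among the barrier transporters. The VEGF receptor Flt1 had 0.30, 0.39, 0.24 and 0.24, the zinc importer Slc39a10 0.29, 0.39, 0.24 and 0.21, and the kelch protein gene Ivns1abp 0.37, 0.36, 0.38 and 0.28. Gm10138, with 0.30, 0.33, 0.31 and 0.30, is an antisense transcript that overlaps Ivns1abp in part. Reads from the stretch that both share may not have been told apart.

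Just outside lay Notum, a secreted enzyme that removes the lipid from Wnt proteins, with correlations of 0.32, 0.37, 0.19 and 0.23. Tdrp (0.18, 0.19, 0.19 and 0.22), the heavy chain partner of Slc7a5, Slc3a2 (0.31, 0.39, 0.20 and 0.18), and the glutamate transporter Slc1a1 (0.23, 0.18, 0.25 and 0.21) came next. CTTTGA was present in 3 and the CCAAT box in 1 of the 10 genes among these 12 that had a RefSeq promoter, against 13.8% and 33.8% of all promoters.

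Genes at the other end had weaker values. Ranked by the correlation nearest to 0 over plates, the class I antigen-presentation gene H2-D1 was lowest, with -0.21, -0.22, -0.18 and -0.18, and H2-K1 had -0.24, -0.19, -0.21 and -0.12. H2-Q4 and Gm7030 were also there, and class I genes share near-identical sequence, so reads could be split between them. The adhesion molecule Vcam1, which binds leukocytes, had -0.24, -0.21, -0.22 and -0.15, and by the mean over plates it was lower than H2-D1 (-0.205 against -0.197). By Pearson r of log2(CPM + 1) the means were -0.22 for Vcam1 and -0.084 for H2-D1. The taurine transporter Slc6a6, alone among the barrier transporters, had correlations below 0 on every plate: -0.21, -0.17, -0.24 and -0.16. The semaphorin and VEGF co-receptor Nrp2 had -0.24, -0.21, -0.12 and -0.16, and the main claudin of the barrier, Cldn5, -0.12, -0.14, -0.16 and -0.17. Tmem176a, C920025E04Rik, Gadd45g and Gm26377, which lies in Eef1a1, made up the rest of the lowest 12.

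**Figure D5:**
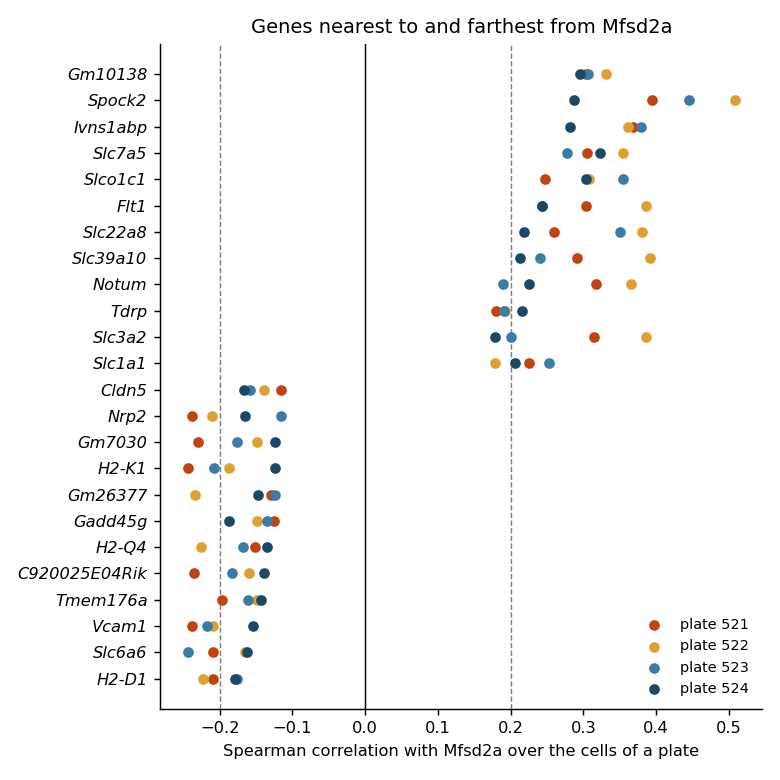
Spearman correlation with Mfsd2a over the cells of each plate (points) for the 12 highest and 12 lowest genes, ranked by the correlation nearest to 0 over plates. Dashed lines mark -0.2 and 0.2. Only the 8 genes at the top lie above 0.2 on every plate.

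By list, barrier transporters followed Mfsd2a most often, beside the capillary markers. The correlation was above 0 on every plate for 17 of 20 barrier transporters and for 9 of 10 capillary markers, against 11.6% of all genes compared. The medians of their mean correlation were 0.19 and 0.24, against 0.00 for all genes. The lists share members, since the capillary markers include transporters. Slc2a1 had 0.18, 0.37, 0.19 and 0.23.

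Wnt/beta-catenin genes, which keep up the barrier program of brain endothelium, had correlations above 0 on every plate for 13 of 19 members compared and below 0 on every plate for 0. Their values were small, with a median of 0.05. Besides Notum, the pathway antagonists Apcdd1 (0.13, 0.11, 0.25 and 0.15) and Nkd1 (0.10, 0.25, 0.17 and 0.17) and the transcription factor Lef1 (0.17, 0.11, 0.13 and 0.07) were the highest. Notch genes had 3 of 6 above 0, with the ligand Dll4 at 0.18, 0.28, 0.11 and 0.18 and the receptors Notch1 (0.21, 0.10, 0.05 and 0.14) and Notch4 (0.25, 0.08, 0.04 and 0.04).

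Lipid genes did not follow Mfsd2a as a list. Of 22 genes of lipid uptake and lysophospholipid handling, 6 were read in enough cells, and 1 of these, Acsl3, had correlations above 0 on every plate (0.12, 0.04, 0.02 and 0.04). Lpcat1 and Lpcat3, which join fatty acids to lysophospholipids, had values of both signs. Of 16 genes of sterol and fatty acid synthesis control, 10 were compared and 3 were above 0 on every plate: the sterol exporter Abcg1 (0.29, 0.07, 0.13 and 0.02), Scap and Srebf1. The transcription factor Srebf1 was close to 0 (0.00, 0.08, 0.05 and 0.01).

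The remaining lists are read against the 11.6% of all genes above 0 and the 9.28% below 0 on every plate. Junction genes were mixed, with 2 of 9 above and 3 below 0 on every plate, and Ocln, a tight junction protein, at 0.07, 0.10, 0.18 and 0.10. Immediate early genes had 5 of 12 below 0 on every plate and 0 above, with Fos at -0.09, -0.23, -0.20 and -0.09 and Jun at -0.06, -0.21, -0.08 and -0.07. Of the 2 leukocyte adhesion genes compared out of 13, Vcam1 and Icam2, both were below 0. Of the 5 shear and nitric oxide genes none had 1 sign on every plate. Of the venous markers, 3 of 10 were compared and all were below 0, Vwf at -0.04, -0.32, -0.23 and -0.20. Of the arterial markers, 3 of 15 were compared, and the kinase gene Bmx was below 0 (-0.09, -0.16, -0.13 and -0.15).

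Among markers of other cells, the pericyte sum had correlations of 0.14, -0.01, 0.03 and 0.05. On plate 521 this lay above the 95th percentile of all genes, 0.13. The astrocyte list had 0.26, 0.27, 0.26 and 0.18, which came from the connexin gene Gja1 (0.36, 0.31, 0.26 and 0.17, at 116 to 246 CPM). The other 5 astrocyte markers, such as Aqp4, had 0.03, -0.09, -0.04 and 0.03.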

How the data were processed

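Single cells were sequenced by Smart-seq2 and the deposited table holds raw read counts per gene, not normalized. The submitters' processing notes list the builds GRCm38 and mm10 and the tools Subread 1.4.6-p5, featureCounts, TopHat2 2.1.1 and SAMtools 0.1.18. Whether counting used strand is not stated there. Angpt2 lies within Mcph1 on the opposite strand, Cav1 overlaps Gm15581, and Slc16a1 overlaps Gm43581 and Gm43585. Reads from the stretches that such genes share may not have been separated.

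Counts were scaled to each cell's or plate's total (CPM), with exact Poisson intervals at 95%. Shares of cells were taken after each cell was thinned to 100000 reads, with Clopper-Pearson intervals. The Poisson intervals take reads as independent, and the Clopper-Pearson intervals take cells as independent. Reads are not independent molecules, so the Poisson intervals are too narrow even for counting error. Neither kind covers the spread between animals. Cells had 100779 to 584112 reads. Column names give plate and well, while the labels only number the cells, so no column was given a genotype and all cells were 1 pooled sample. No test was made and no p-value is given, since cells are not replicates.

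Spearman correlation was computed over the cells of each plate for genes read in at least 20% of the cells of every plate. The script was tested on simulated data. Cells were clustered with scanpy 1.11.5 and python-igraph 0.11.9 (2000 variable genes, 30 principal components, 15 neighbours, resolution 1). Variable genes left out Mfsd2a, Angpt2, Cav1, Slc16a1, the lipid lists, Xist, Tsix, Y-linked and mitochondrial genes, and genes over 2-fold apart between plates. A cluster was named where at least 3 markers, and 50% of those detected, were 1.5-fold higher than in other cells with 1 of them among its 10 leading genes. No doublet caller was run.

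Genes were to be named by a rule: Mfsd2a, Mfsd2b, Angpt2, Cav1 and Slc16a1, and up to 4 members of a list. The rule also took the 12 genes with the highest and the 12 with the lowest correlation nearest to 0 over plates among those of 1 sign. Further list members, such as Slc27a3, Spns2, Lrp8 and Slco1a4, are named outside it. The gene, the lists and this rule were chosen with earlier results of these data known. Matched capillary sums, cells without pericyte reads, partners at 5 reads and the correlations without cells of other types were added after seeing the data.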

Additional observations from a re-analysis of the deposited data

How the results depend on the processing

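No paired analysis was possible because the columns carry no replicate number and no result comes from a test. Plate 521 was lowest and plate 522 next under each summary of the level. Averaged over single cells, the level was 192, 527, 834 and 844 on plates 521 to 524, as their median 0, 30.4, 705.0 and 704.8, and without the 50 most abundant genes in the scaling 220.0, 596, 953 and 952. Cells without a pericyte read gave 156 on plate 521 and 817 on plate 524. Unthinned shares with a read were 41.7%, 69.0%, 88.1% and 90.4%, and with 5 reads required 49.0%, 69.8% and 75.6% on plates 522 to 524. The arterial ratio was -0.0022 with 3 bins, and the capillary ratio 1.58 by number of members read. Leaving out each plate gave 9 to 17 positively correlated genes, with 13 without plate 521 and 17 without plate 524, all holding the same 8, and 0 to 2 negative genes, the 2 being H2-Q7 and Vcam1 without plate 524. By Pearson r of log2(CPM + 1) there were 10, with 6 of the 8 and without Ivns1abp and Slco1c1. The arterial-like level was 285, 136, 198 and 422 CPM at resolution 0.5, resolution 2, 1000 and 4000 variable genes. The venous-like level was 345, 289 and 341 and the angiogenic-like level 535, 407 and 555 CPM at the last 3 of these settings. The 345 averages 2 clusters, at 263 and 450.1 CPM, weighted by cells. At resolution 0.5 no cluster had either name. Of 258 values of named genes under alternatives, 258 had the same sign and 16 moved by more than the spread over plates. Part of this was fixed in advance. These genes were chosen for 1 sign on every plate, so leaving out a plate could not change the sign of their mean. Changing the share of cells with a read left each value as it was. By Pearson r, H2-D1 was -0.084, C920025E04Rik -0.10, Gm7030 -0.10 and Gm26377 -0.087. At 100000 reads, Gm7030 and Gm26377 were each -0.10. The depth limits cells with a few reads, and counting intervals leave out the spread between cells and animals.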
